A study of Sus scrofa with 36 samples.

Results

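Hepcidin (HAMP) and 9 other genes that carry, store or sense iron were followed in the liver of 36 pigs. The genes were HAMP, transferrin (TF), the transferrin receptors TFRC and TFR2, the iron exporter SLC40A1, the ferritin chains FTH1 and FTL, the ligand BMP6, and the BMP targets ID1 and SMAD7. Every array probe assigned to these genes by its name, transcript accession or description was taken if its spot was well above background on at least 6 of the 36 arrays. This gave 30 probes for 10 genes, of 10506 named genes with such a probe. All 30 probes on the array met the limit, and the dimmest, SMAD7 probe 2, was above background on 11 arrays. The probes of a gene are numbered by mean signal, probe 1 being the brightest. HAMP was selected on its own difference in signal between the temperatures in these same animals, and the other genes were chosen by their part in iron handling. The HAMP temperature difference is therefore given as a description without a test.

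Hepcidin is a small peptide hormone that hepatocytes release into the blood. It binds ferroportin, the product of SLC40A1, on macrophages, enterocytes and hepatocytes, so that the exporter is taken in and degraded and less iron enters the plasma. Its transcription is raised by iron through BMP6, which liver endothelial cells secrete, and the SMAD proteins, and by inflammation through interleukin 6 and STAT3. TFRC takes up transferrin-bound iron, and its mRNA is stabilised by the iron regulatory proteins when a cell is short of iron. Ferritin, built from heavy (FTH1) and light (FTL) chains, stores iron and is controlled largely at translation.

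The animals were castrated males that all had free access to feed, of the Large White breed (LW), the Creole breed (CR) and their cross (F1), with 12 animals per breed. In each breed 6 were killed at thermoneutrality (TN, 24 °C) and 6 under heat stress (HS). The sample labels give 30 °C for HS, and the growth protocol gives 32 °C for 5 days. Per the methods, HS animals were killed a few days after TN animals, and neither the day of slaughter nor that small gap in age can be told apart from temperature. The paper reports that feed intake fell under heat, and no TN group was fed to match. Feed intake therefore cannot be told apart from temperature either. The methods also state that littermates were used and pens shared. Neither is given in the labels, so p-values do not account for kinship or pen. The arrays filled 5 slides, each with as many TN as HS animals, but the breeds were not balanced on every slide. On the first principal component of all kept probes, 5 animals (LW TN replicates 1 and 6, F1 TN replicate 3 and F1 HS replicates 1 and 2) lay away from their own breed, and results that rest on them are given with and without them. The 6 hepatocyte markers looked for, albumin among them, all had kept probes. In whole liver, fewer cells of a type and less RNA per cell cannot be told apart.

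HAMP lies on chromosome 6 (Sscrofa11.1, 6:44785863-44787303). One of its 2 probes is shown because its letters hold the cysteine-rich end of hepcidin. Cysteine codons in its reading frame are in capitals, 8 of 20 codons.

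HAMP probe 2: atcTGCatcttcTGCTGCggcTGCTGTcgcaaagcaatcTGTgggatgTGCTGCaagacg

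HAMP signal varied between animals more than that of any of its 9 partners. On the log2 scale of quantile-normalized spot signal, probe 1 ran from 7.20 over a median of 9.14 to 13.79 in LW TN animals and from 9.16 over 14.37 to 15.11 in LW HS animals. In CR it ran from 7.19 over 10.66 to 15.16 in TN and from 9.29 over 14.33 to 16.84 in HS. In F1 the TN animals ran from 7.31 over 8.63 to 12.24 and the HS animals from 8.30 over 14.43 to 15.83. The TN and HS ranges overlapped in each breed. Levels under 10 were found in 11 of 18 TN and 3 of 18 HS animals. The highest animal lay 805-fold above the lowest. Both probes gave this pattern, with a correlation of 0.999 between them over the deviations of the 36 animals from their group means.

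The fitted HS minus TN difference was 3.70 (SE 0.838, n = 18 against 18), a 13.0-fold higher signal in HS. By breed the difference came to 3.46 for LW, 3.18 for CR and 4.47 for F1 (SE 1.49 each, n = 6 against 6). The within-breed values did not differ beyond their errors (limma, interaction adjusted p = 0.998). Breeds did not differ in HAMP at the threshold either. CR lay 0.79 above LW (SE 1.03, adjusted p = 0.619), F1 0.27 below LW (limma difference -0.27, adjusted p = 0.894), and F1 minus CR was -1.05 (adjusted p = 0.773).

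**Figure D1:**
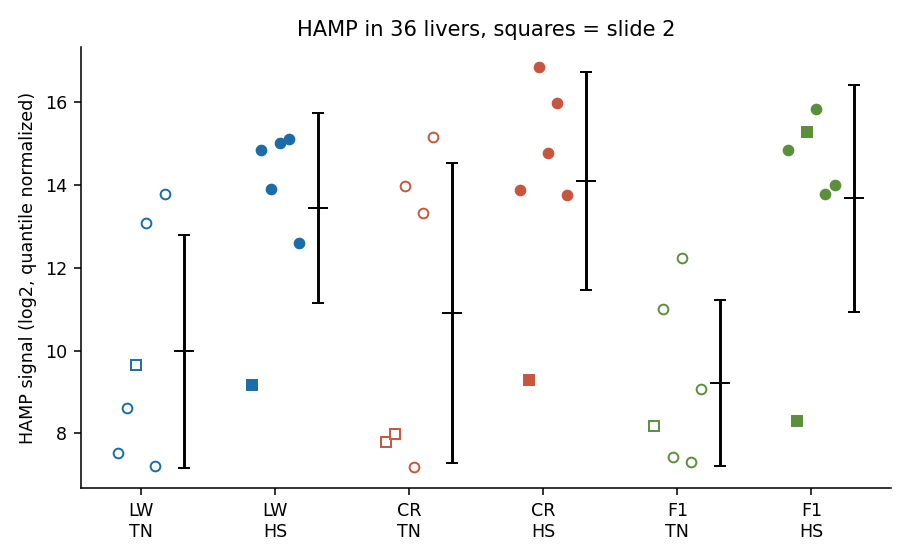
HAMP probe 1 in each of the 36 animals, as log2 quantile-normalized signal (vertical axis), by breed and temperature. Open symbols are TN, filled symbols HS, squares the arrays of slide 2, and the bars beside them the mean ± SD of 6 animals. Low animals were found in every group, 11 in TN and 3 in HS under a level of 10, and the 3 low HS animals were all on slide 2.

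The 3 HS animals under 10 were LW HS replicate 1, CR HS replicate 2 and F1 HS replicate 2, and all 3 arrays were on slide 2. On that slide 7 of the 8 animals were under 10. Within the slides, the HS minus TN difference was 6.30 on slide 1 (2 against 2 animals), then 2.10, 4.04, 4.62 and 2.76 on slides 2 to 5 (4 against 4 animals each). On slide 1 the TN animals were LW and the HS animals CR and F1, so breed and temperature cannot be told apart there. HS was higher on each slide, again as a description of the difference on which HAMP was selected. The size was smallest on slide 2. Whether the slide plays a part in the low values was not tested.

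Of the 28 probes of the other 9 genes, none passed the threshold for HS minus TN (limma, Benjamini-Hochberg over 44796 probes, threshold 0.05), against 0.859% of all probes. At an unadjusted limma p under 0.05 were 6 of the 28, against 5859 of all 44796 probes. The median difference of the 28 was 0.00 on the log2 scale, as over all probes. For CR minus LW 2 of the 28 were called (26.5% of all probes), for F1 minus LW 1 (18.4%), and for F1 minus CR 0 (1.5%). The shares for CR minus LW and F1 minus LW were below those of all probes. For F1 minus CR 9 of the 28 had an unadjusted limma p under 0.05, most of them FTH1 probes, against 5594 of all 44796 probes. No probe was called for the breed by temperature interaction, of the members or of all probes (0%). At an unadjusted limma p under 0.05 was 1 of the 28, against 1676 of all 44796 probes.

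**Figure D2:**
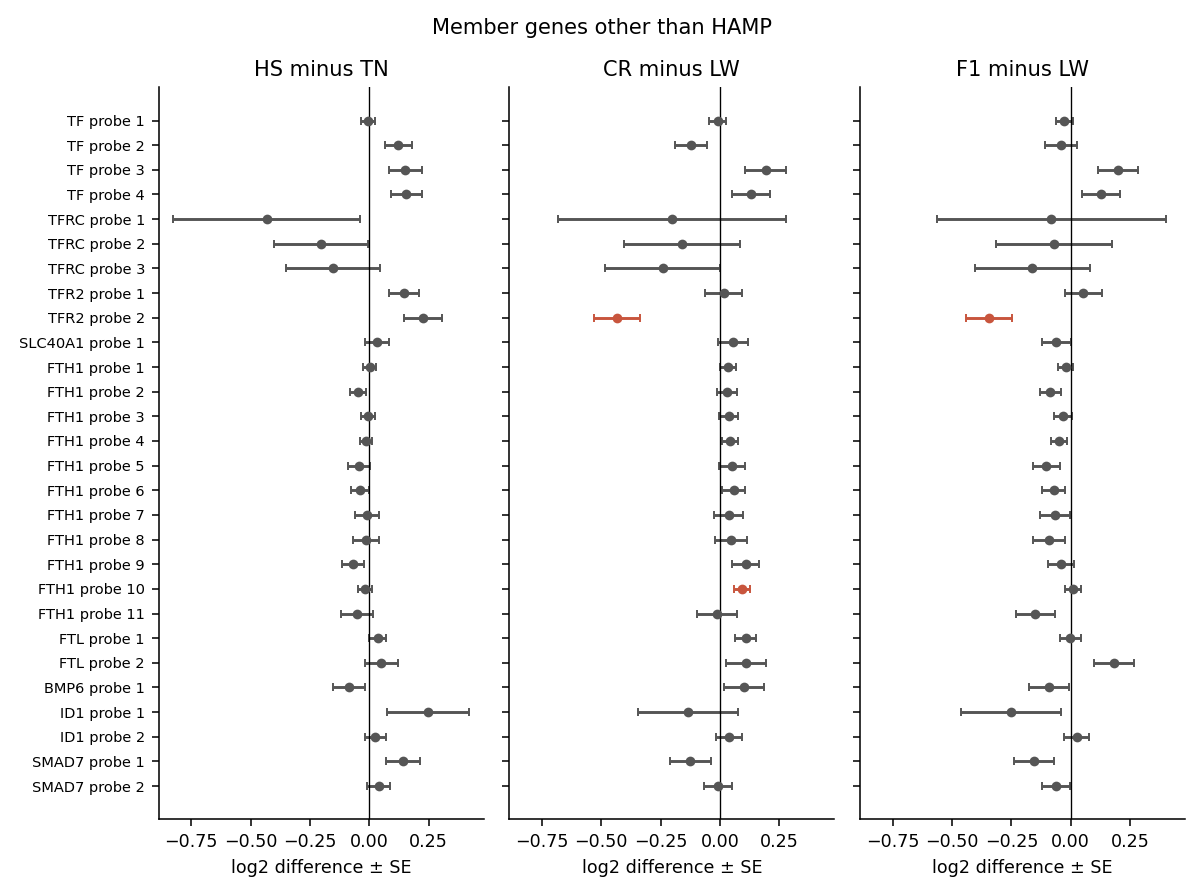
Fitted log2 differences (horizontal axis, points ± SE) for the 28 probes of the 9 genes other than HAMP in HS minus TN, CR minus LW and F1 minus LW, with probes past an adjusted p of 0.05 in red and the others in grey. No probe is red for HS minus TN, and the largest breed difference past the threshold is that of TFR2 probe 2, at -0.43 in CR and -0.34 in F1.

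Among the receptors, TFRC (13:133976765-133997554), which takes up transferrin-bound iron, was the member that varied most after HAMP, with a 17.7-fold span between animals. Probe 1 ran from 12.28 over a median of 14.66 to 15.20 in LW TN and from 11.16 over 13.03 to 15.31 in LW HS. In CR it ran from 11.83 over 13.48 to 14.82 in TN and from 11.98 over 13.62 to 15.02 in HS, and in F1 from 12.74 over 14.29 to 14.74 in TN and from 12.14 over 13.16 to 14.68 in HS. The temperatures overlapped over nearly the whole range. HS minus TN was -0.43 (SE 0.393, adjusted p = 0.721), and CR and F1 differed from LW by -0.20 and -0.08 (limma adjusted p = 0.802 and 0.931). Its 3 probes moved together across animals (r of 0.968 to 0.973 over deviations from the group means).

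The variation of HAMP between animals of the same group, which the temperature contrast did not use, was set against that of the other 9 genes. Values were taken as deviations from the 6 group means, so that breed and temperature carried nothing into them. Pooled over the 6 groups, the HAMP deviations formed no separate clusters, the largest gap being 0.0742 of their range. Inside single groups wider gaps were seen. In CR TN the animals lay at 7.99 or below or at 13.33 or above on HAMP probe 1. Whether the relations below are graded or set low against high HAMP animals was not tested. TFRC had the strongest negative relation to HAMP, with r = -0.77 and rho = -0.78 over 36 animals. It ranked first from the lowest rho among the 10489 named genes for which it could be computed. The permutation p within groups was 1e-05 for both, the smallest that 100000 resamples can give. Adjusted over the 10489 genes, it was 0.0524 for r and 0.035 for rho. With 1000000 resamples, a number chosen after the data had been seen, the adjusted permutation p was 0.021 for r and 0.00699 for rho.

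The relation had the same sign at both temperatures, where it passed the unadjusted threshold but not adjustment over all genes. In TN animals r was -0.89 (rho -0.76, 18 animals, unadjusted permutation p = 9e-05 and 0.00136) and in HS animals -0.68 (rho -0.66, 18 animals, unadjusted permutation p = 0.00136 and 0.00616). With slide means removed as well, r was -0.69 and rho -0.68 (unadjusted permutation p = 3e-05 and 5e-05, 100000 resamples). Adjusted over all genes, the permutation p was then 0.105 for r and 0.131 for rho, which did not pass the threshold. Without the 2 animals farthest from the HAMP median, CR HS replicate 2 and F1 HS replicate 2, r was -0.74. Leaving out the 5 animals apart on the first component gave -0.77, and leaving out any single animal gave -0.80 to -0.74. TFRC probes 2 and 3 gave r = -0.71 and -0.73. Within groups, TFRC was lower by 0.36 on the log2 scale for each unit of HAMP (slope -0.36, SE 0.0557).

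**Figure D3:**
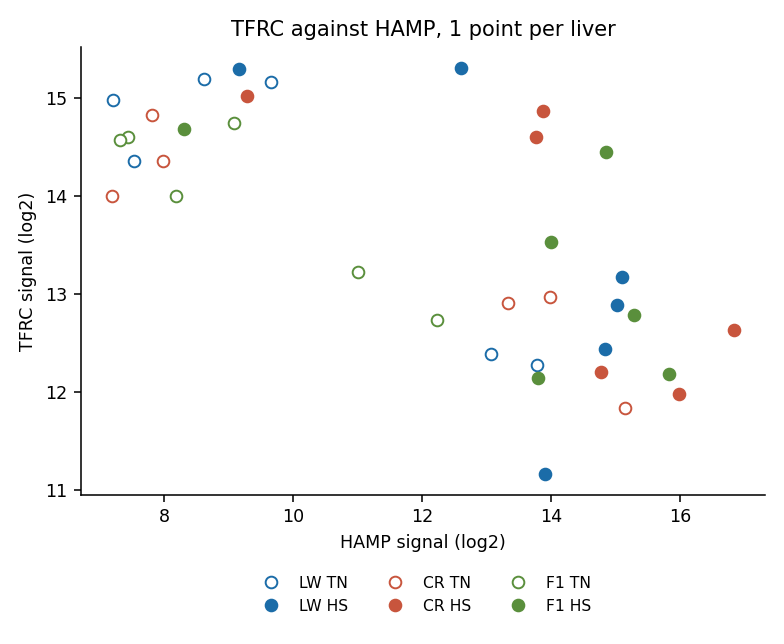
TFRC probe 1 (vertical axis) against HAMP probe 1 (horizontal axis), both as log2 quantile-normalized signal, for 36 animals. Open symbols are TN, filled symbols HS, and colours mark LW, CR and F1. Animals high in HAMP were low in TFRC at both temperatures, with r = -0.89 in TN and -0.68 in HS after the group means were removed.

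A description chosen after these values were seen sets the members beside each other in a model. With HAMP and breed in the model, TFRC was 0.89 higher in HS than in TN (SE 0.339), whereas without HAMP it was 0.43 lower. With TFRC and breed in the model, HAMP was 3.00 higher in HS (SE 0.593). The first value rests on the HAMP temperature difference on which HAMP was selected, so nothing is read from it.

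ID1 (17:35316518-35317742), an inhibitor of helix-loop-helix transcription factors that BMP signalling induces in hepatocytes, had the highest positive relation to HAMP of the 9 genes. Probe 1 ran from 9.79 over a median of 10.65 to 12.14 in the 18 TN animals and from 10.33 over 10.76 to 12.06 in the 18 HS animals. The ranges overlapped, and HS minus TN was 0.25 (SE 0.172, limma adjusted p = 0.597). Across the 36 animals r with HAMP was 0.49 and rho 0.42 (permutation p = 0.0113 and 0.0239), which did not hold after adjustment over the 10489 genes (0.418 and 0.469). In TN animals r was 0.62 and in HS animals 0.36 (permutation p = 0.163 in HS). Without the 2 animals farthest from the HAMP median, r was 0.46 and rho 0.37 (permutation p = 0.0228 and 0.057). ID1 probe 2, above background on 17 of 36 arrays, did not follow probe 1 (r = 0.07 between them). The strand that ID1 probe 2 carries was not determined, so its values may not read ID1 mRNA.

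On probe 1 the other members had weaker relations to HAMP, and none passed after adjustment over all genes (smallest adjusted permutation p = 0.528). On the only SLC40A1 probe, whose strand was not determined, r was -0.35 and rho -0.39 (permutation p = 0.065 and 0.0423). This r moved to -0.26 without the 2 farthest animals and to -0.54 without the 5 animals apart on the first component. FTH1 probe 1 had r = -0.33 and rho -0.17 (permutation p = 0.0603 and 0.335). It was 0.33 in TN animals, -0.73 in HS animals and 0.01 without the 2 farthest animals, so the value of probe 1 over all animals rested on those 2. The other 10 FTH1 probes, given without a test, had r of -0.53 (probe 2, rho -0.58) to -0.05 (probe 4), and all were negative. BMP6, TF, TFR2, FTL and SMAD7 had r of -0.25, 0.14, -0.06, 0.05 and -0.04 on probe 1 (permutation p = 0.172, 0.461, 0.77, 0.785 and 0.824). Other probes of these genes could differ from probe 1, with r of -0.38 for TFR2 probe 2 and -0.30 for TF probe 2, neither tested.

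TFR2 (3:8539316-8553993), a receptor on hepatocytes that senses transferrin-bound iron and is needed for normal hepcidin expression, was, with FTH1, a member with a breed difference past the threshold. It came from probe 2, whose sequence is given because the 2 TFR2 probes did not move together. Its letters are in lower case throughout, with no part marked.

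TFR2 probe 2: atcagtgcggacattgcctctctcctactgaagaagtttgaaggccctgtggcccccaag

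On this probe the 12 LW animals ran from 8.39 over a median of 8.97 to 9.26, the 12 CR animals from 8.07 over 8.55 to 8.88, and the 12 F1 animals from 8.13 over 8.56 to 9.14. LW lay highest, CR and F1 lay close together, and the ranges overlapped. It was lower in CR than in LW by 0.43 (difference -0.43, SE 0.0965, limma adjusted p = 0.0011), and lower in F1 than in LW (difference -0.34, SE 0.0965, adjusted p = 0.0129). The F1 call was lost without slide 3 (-0.30, limma adjusted p = 0.111) and without slide 4 (-0.34, adjusted p = 0.0625). TFR2 probe 1 differed by 0.02 in CR and 0.05 in F1 (limma adjusted p = 0.911 and 0.694), and the probes had r = -0.13 across animals. The TFR2 result therefore holds for the stretch that probe 2 reads and was not seen with probe 1. Probe 2 also had the smallest adjusted p of the 28 probes in HS minus TN, with 0.23 higher signal in HS (SE 0.0788, limma adjusted p = 0.159).

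The signal molecules upstream of hepcidin, where measured, did not differ between temperatures at the threshold. BMP6 (7:5058817-5208868), the endothelial ligand, was above background on only 15 of 36 arrays and ran from 4.96 over 5.41 to 5.85 in TN and from 4.99 over 5.33 to 5.64 in HS. Its HS minus TN difference was -0.09 (SE 0.0684, limma adjusted p = 0.671), at a level near background that limits what could be seen. SMAD7 (1:98512800-98543924), an inhibitor that BMP signalling induces, ran from 9.27 over 9.50 to 10.003 in TN and from 9.31 over 9.64 to 10.22 in HS, a difference of 0.14 (SE 0.0698, limma adjusted p = 0.38).

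The exporter SLC40A1 (15:94140635-94161793) ran from 6.08 over 6.39 to 6.73 in TN and from 6.20 over 6.48 to 6.68 in HS on its only probe. The strand that this probe carries was not determined, so its values cannot be taken as a measure of the exporter's mRNA. The temperatures overlapped, with a difference of 0.03 (SE 0.0506, limma adjusted p = 0.865). TF (13:74930655-74970599), the plasma iron carrier made by hepatocytes, ran from 18.19 to 18.46 in TN and from 18.21 to 18.41 in HS on probe 1, with a difference of 0.00 (SE 0.0292, limma adjusted p = 0.979). Its probes 3 and 4, lower on the scale, were 0.15 and 0.16 higher in HS (limma adjusted p = 0.326 and 0.277).

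**Figure D4:**
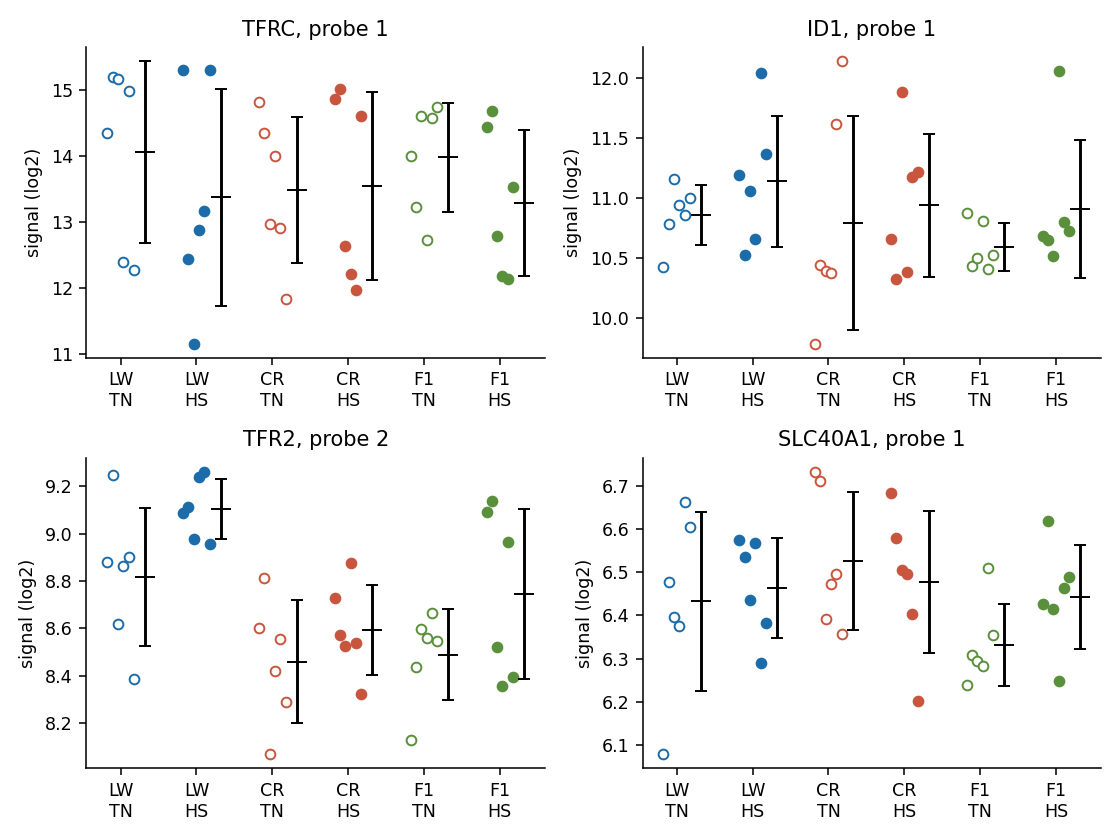
TFRC probe 1, ID1 probe 1, TFR2 probe 2 and SLC40A1 probe 1 in each animal, as log2 quantile-normalized signal (vertical axes, each panel with its own range), by breed and temperature. Open symbols are TN, filled symbols HS, and bars the mean ± SD of 6 animals. The TN and HS animals overlap in each panel, and on TFR2 probe 2 the LW animals lie highest, with a median of 8.97 against 8.55 in CR.

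The 11 FTH1 probes and FTL probe 1 were among the brightest of the array. FTH1 (2:9535051-9537979) ran from 18.41 over 18.49 to 18.58 in TN and from 18.38 over 18.48 to 18.63 in HS on probe 1, a difference of 0.00 (SE 0.027, limma adjusted p = 0.984). Its 11 probes are not separate measurements of it, because 8 of them stand in 8 pairs that share at least 20 bases in a row. FTH1 probe 10 passed the threshold for CR minus LW with 0.09 (SE 0.0351, limma adjusted p = 0.0469). The LW animals ran from 17.65 over 17.76 to 17.87 on it and the CR animals from 17.73 over 17.87 to 17.94, with overlap. This call was lost in 20 of the 36 fits that left out a single animal.

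FTL (6:54231121-54232756) ran from 18.24 over 18.42 to 18.65 in TN and from 18.28 over 18.44 to 18.73 in HS on probe 1, a difference of 0.04 (SE 0.0354, limma adjusted p = 0.754). A stretch of the FTL probes is shown because it tells which strand each carries. It is the last 33 coding bases before the stop codon of probe 1, printed as each probe carries it, with no capitals.

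FTL probe 1: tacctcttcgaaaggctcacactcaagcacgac

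FTL probe 2: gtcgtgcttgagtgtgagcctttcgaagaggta

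The probes share 44 bases on opposite strands, so FTL probe 2 carries the reverse complement of probe 1. The deviations of the 2 probes had r = 0.09 across animals. The spread of some of the brightest probes differed between settings. The pooled SD within groups was 0.057 for FTH1 probe 1 against 0.132 in the processed signal scaled to the 75th percentile, 0.083 against 0.141 for FTL probe 1, and 0.070 against 0.124 for TF probe 1. These 3 probes thus had a narrower spread on the quantile scale than in that signal, whereas FTH1 probe 11 (0.206 against 0.212) and TF probe 2 (0.165 against 0.163) had nearly the same in both. The settings differ in the signal column as well as in the scaling, and which of these sets the spread was not tested.

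The wider pathway was read from 6 lists of iron genes (72 genes, 58 with a kept probe), each gene by its brightest probe. A call holds for that probe alone, and other probes could differ. SLC25A37 was called for CR minus LW on 2 of its 7 probes and GLRX5 on 1 of 3. HP and JAK1, not called for CR minus LW on the brightest probe, were called on 5 of 6 and 4 of 7. HMOX1 was called for HS minus TN on 1 of its 4 probes, not the brightest. For HS minus TN 1 of 58 passed (1.72%, against 0.952% of all 10506 genes). This was BLVRB, an enzyme that reduces biliverdin, which fell by 0.28 (SE 0.0666, limma adjusted p = 0.0377). For CR minus LW 20 of 58 passed (34.5%, against 25.9%), 10 higher and 10 lower. For F1 minus LW 10 passed (17.2%, against 17.3%), and for F1 minus CR 1 (1.72%, against 1.78%), PCBP2, an iron chaperone, at -0.36 (SE 0.0853, limma adjusted p = 0.019). The median CR minus LW difference of the 58 was 0.02, against -0.01 over all named genes.

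In the list of BMP and SMAD signalling to hepcidin, 11 of 18 genes were kept. For HS minus TN 0 passed in limma (0.952% of all named genes), with 1 at an unadjusted p under 0.05 (5859 of all 44796 probes). For CR minus LW 4 were lower and 1 higher, and for F1 minus LW 4 were lower. The shares of all named genes called were 25.9% and 17.3%, in either direction. The ligand BMP2 was 0.53 lower in CR (difference -0.53, SE 0.0995, limma adjusted p = 0.000182) and -0.28 in F1 against LW (adjusted p = 0.0481). ID3, a BMP target, differed by -0.46 in CR (SE 0.076, limma adjusted p = 3.63e-05) and by -0.34 in F1 (adjusted p = 0.003). SMAD6, an inhibitor, differed by -0.25 in CR and SMAD1, a signal carrier, by -0.20 in F1 (limma adjusted p = 0.018 and 0.0203). HAMP itself, as given above, did not differ between breeds at the threshold, with a standard error of 1.03.

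Marker genes of cell types differed between breeds as well, chiefly those of 2 types. Of all named genes, 25.9% were called for CR minus LW and 17.3% for F1 minus LW, in either direction. Of 6 sinusoidal endothelial markers kept, 6 were lower in CR than in LW and 4 in F1 than in LW. Their summed signal ran from 24466 to 37564 units in LW, from 18034.5 to 27566 in CR and from 18645 to 35981 in F1. Of 7 Kupffer cell and macrophage markers, 4 were lower in CR and 4 in F1 than in LW, with sums of 128782 to 158172 in LW, 111888 to 143931 in CR and 110752 to 154141 in F1. For HS minus TN 0 markers of either list passed in limma (0.952% of all named genes). At an unadjusted limma p under 0.05 were 2 endothelial and 0 Kupffer cell markers, against 5859 of all 44796 probes. Of the 6 hepatocyte markers 2 were lower in CR, of 6 stellate cell markers 1 in CR and 1 in F1, and of 5 erythroid markers 0 passed in any comparison by limma, with 0 at an unadjusted p under 0.05. The part of the cell type markers in the breed differences was not tested.

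Among the genes of heme and haemoglobin scavenging (11 of 11 kept), 3 were lower and 1 higher in CR, and 1 was lower in F1. The shares of all named genes called against LW were 25.9% in CR and 17.3% in F1. CD163, the haemoglobin scavenger receptor of macrophages, differed by -1.16 in CR (SE 0.128, limma adjusted p = 1.08e-07) and by -0.74 in F1 (adjusted p = 0.000321). Of the 7 macrophage markers, 4 were lower in CR and 4 in F1, and whether CD163 followed them was not tested. HMOX1, which opens the heme ring, differed by -0.32 in CR (limma adjusted p = 0.0211). BLVRB was 0.28 higher in CR (limma adjusted p = 0.00883).

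In the IL6 and STAT3 list (7 of 9 kept), IL6ST, the shared signal receptor, was 0.39 higher in CR and 0.38 higher in F1 than in LW (SE 0.088, limma adjusted p = 0.00129 and 0.00364). JAK2, a kinase of the same route, differed by -0.22 in CR (limma adjusted p = 0.0494). For HS minus TN 0 genes of the list passed (0.952% of all named genes), with 2 at an unadjusted p under 0.05 (5859 of all 44796 probes). SOCS3, a STAT3 target, was 0.36 higher in HS with SE 0.154 (limma adjusted p = 0.276). Of the iron importers and exporters (8 of 10 kept), SLC39A8 was 0.63 higher in CR (SE 0.197, limma adjusted p = 0.0168), and SLC39A14, which takes up iron not bound to transferrin, was 0.29 higher in CR and 0.30 higher in F1 (adjusted p = 0.0215 and 0.03). SLC22A17, a lipocalin receptor, differed by -0.29 in CR (limma adjusted p = 0.00872).

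Of the iron regulatory and storage genes (8 of 9 kept), NCOA4, which carries ferritin to the lysosome, was 0.58 higher in CR and 0.48 higher in F1 than in LW (SE 0.139, limma adjusted p = 0.00226 and 0.0163). Of the 4 NCOA4 probes 3 were called for CR minus LW and 1 for F1 minus LW. PCBP2 was 0.37 higher in CR than in LW (adjusted p = 0.00143), and IREB2, an iron regulatory protein, was 0.28 higher in F1 (adjusted p = 0.0274). HIF1A differed by -0.21 in CR (limma adjusted p = 0.0183). In heme synthesis and mitochondrial iron (13 of 15 kept), 3 were higher in CR (25.9% of all named genes called). They were GLRX5, SLC25A37 and UROD, at 0.33, 0.27 and 0.24 (limma adjusted p = 0.0138, 0.00899 and 0.00661), and SLC25A37, the mitochondrial iron importer, was also 0.29 higher in F1 (adjusted p = 0.011).

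The genes whose signal was most like that of HAMP across the 36 animals, by rho of deviations from the group means among 10489 named genes, were SLC4A2 (0.73), NCOA4 (0.70), SDHA (0.67), FABP3 (0.64) and CDCA2 (0.64). With slide means removed as well, these 5 had 0.50, 0.67, 0.56, 0.46 and 0.29 in the same order. The other probes of SLC4A2 ran from -0.19 to 0.47, those of SDHA from -0.02 to 0.61 and those of FABP3 from 0.57 to 0.64, and CDCA2 had 1 probe. Besides TFRC, the most opposite were EPAS1 (-0.73), RPS27A (-0.71), RPS26 (-0.68), RPL3 (-0.67) and ACP5 (-0.66). With slide means removed they had -0.48, -0.63, -0.56, -0.50 and -0.52, and the other probes of RPS26 ran from -0.61 to -0.17. Beyond a rho of 0.5 in size lay 142 genes, 1.35% of the total. Among the 58 iron genes 4 did, namely NCOA4, EPAS1, SLC11A2 (-0.59), an iron importer, and ID2 (0.55), a BMP target. With slide means removed as well, NCOA4 alone of the 4 stayed beyond 0.5 (0.67), and EPAS1, SLC11A2 and ID2 had -0.48, -0.34 and 0.41. The 6 endothelial markers ran from -0.54 for LYVE1, -0.27 with slide means removed, to 0.24. Markers of hepatocytes, Kupffer cells and stellate cells stayed within 0.5 in size.

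**Figure D5:**
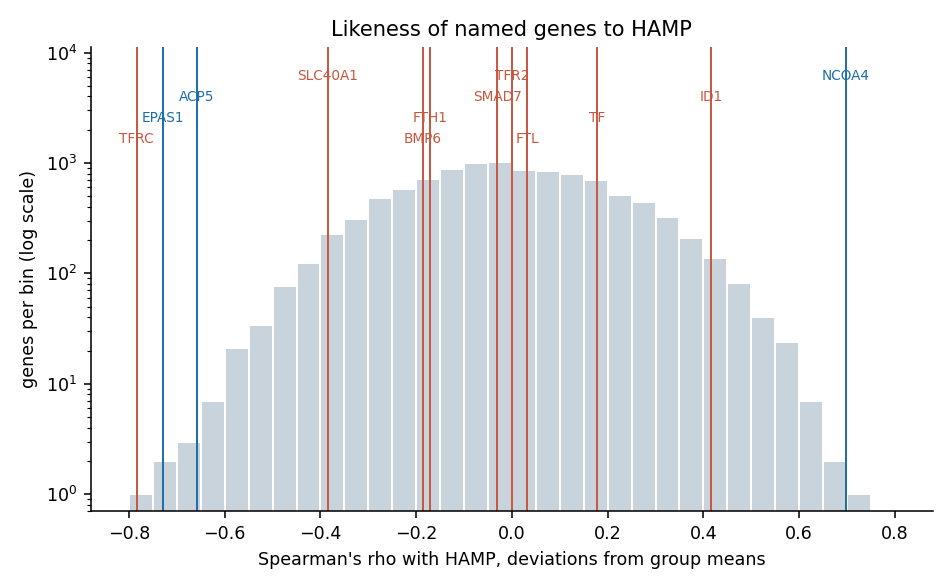
Number of named genes (vertical axis, log scale) by their Spearman rho with HAMP over the deviations of 36 animals from their group means (horizontal axis). Red marks the 9 other members and blue NCOA4, EPAS1 and ACP5. TFRC, at -0.78, is the lowest of 10489 genes, and ID1, at 0.42, is the highest of the members.

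With 1000000 resamples 4 of the 10489 genes passed adjustment by r: TFRC, NCOA4 (r = 0.72, adjusted permutation p = 0.0262), EPAS1 (r = -0.67, 0.0341) and ACP5 (r = -0.69, 0.0341). With 100000 resamples, where the smallest p is 1e-05, 0 did. EPAS1, the hypoxia-inducible factor 2 alpha, ran from 12.75 over 13.02 to 13.49 in TN and from 12.58 over 13.04 to 13.40 in HS. NCOA4 ran from 9.52 over 10.34 to 10.83 in TN and from 9.37 over 10.46 to 11.06 in HS, and ACP5, an iron-containing acid phosphatase, from 11.62 over 12.57 to 13.60 and from 11.50 over 12.30 to 13.78. The temperatures overlapped for each of the 3. The HS minus TN differences were 0.04 for NCOA4, -0.03 for EPAS1 and -0.19 for ACP5 (limma adjusted p = 0.936, 0.916 and 0.778). The other probes of NCOA4 had rho of 0.84, 0.80 and 0.19 with HAMP, those of EPAS1 -0.54, -0.33 and -0.55, and those of ACP5 -0.62, -0.51 and -0.54.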

How the data were processed

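Liver RNA was measured on single-colour Agilent arrays of 60-base probes. The authors deposited a scanner table per array (Agilent Feature Extraction 10.10.1.1) with spot intensity values on a linear scale, and a table of log2 values for 42051 probes that they had quantile normalized. How that table was scaled is not fully stated (column medians of 7.66, highest value 13.5), so it served as an alternative. Median spot signals were log2 transformed and quantile normalized over 60306 non-control spots, 107 non-uniform spots were set as missing, and probes well above background on at least 6 arrays were kept (44796 of 60305, 74.3%). Per array, 39644 to 44025 spots were above background, and none were saturated. Precision is limited by the number of arrays. Breed and temperature were fitted in limma 3.58.1 (R 4.3.3), and the interaction in a model of the 6 group means, with Benjamini-Hochberg adjustment over the kept probes. The authors' model also held pen, slaughter day and parents, which were not used here. Replicate numbers only name animals.

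Gene names came from the scanner tables and the RefSeq gene table of Sscrofa11.1, which also gave the coordinates. A probe described as an inhibitor of carbonic anhydrase and a probe for several ferritin genes were left out, and genes without a kept probe were not analysed here. Members and lists were chosen with earlier results of these data known. Named are all 10 members, from each list at most 4 genes past the threshold with the largest differences, and the 5 highest and 5 lowest genes by rho with HAMP. SOCS3, HP, JAK1, ID2, SLC11A2, LYVE1 and the other probes of list genes and of the genes most like HAMP were named after their values were seen. HAMP correlations were permuted within the 6 groups, two-sided, and adjusted over all named genes. Alternatives were the processed signal scaled to the 75th percentile, normexp correction (offset 50), the authors' table, other filters, slide as a block, array weights, and leaving out each animal, each slide and 5 animals, the last added after the data had been seen. The scripts were tested on simulated data.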

Additional observations from a re-analysis of the deposited data

Results flagged for a closer look

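In 60 checks of 10 genes in 6 groups of 6 animals, 4 animals stood apart from the rest of their group, where chance gives about 3. HAMP in F1 HS replicate 2 was the lowest of its group at 8.30 against 13.79 for the next animal, a gap of 0.729 of the range. TFR2 probe 1 was lowest in LW HS replicate 2 (13.19, next 13.36, gap 0.676 of the range) and in CR HS replicate 6 (13.00, next 13.54, gap 0.81). ID1 was highest in F1 HS replicate 4 at 12.06 against 10.80 for the next animal, a gap of 0.817 of the range. F1 HS replicate 2 is also one of the 5 animals apart on the first component.

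FTL probe 1 was above the TN mean in all 6 HS animals of LW and below it in all 6 HS animals of F1. The mean difference was 0.16 in LW and -0.06 in F1, 0.217 apart on the log2 scale, and the interaction did not pass the threshold (limma adjusted p = 0.995).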

How the results depend on the processing

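The HAMP probe 1 difference ran from 3.33 to 4.04 over the 50 alternatives. Because HAMP was selected on this difference in these same animals, the range is a description and lends it no support. No partner probe was called for HS minus TN, or any probe for the interaction, in any of the alternatives. The count of all probes called for HS minus TN was 148, 79, 131, 70 and 85 without slides 1 to 5, and 202 to 529 without a single animal (202 without F1 TN replicate 4). For CR minus LW it was 5688 and 7893 without slides 3 and 4, and 10599 to 12691 without a single animal. For F1 minus LW it was 4294, 1576 and 4839 without slides 2, 3 and 4, 14486 without the 5 animals apart on the first component, and 6276 to 9860 without a single animal. For F1 minus CR the counts were 203, 120, 328, 1072 and 480 to 721 in the same order. Fewer animals were fitted in each of these, and the cause was not tested further. Member probes called other than HAMP for CR minus LW numbered 1 with no filter on dim probes, 4 with array weights, 1 without each of slides 1 to 4 and 1 to 3 without a single animal. For F1 minus LW they numbered 3 with array weights, 0 without slide 3, 6 without the 5 animals and 1 to 3 without a single animal (3 without F1 TN replicate 3). For F1 minus CR they numbered 2 without the 5 animals and 0 otherwise. The 6 were TF probe 3, TFR2 probe 2, FTH1 probes 2, 5 and 11 and FTL probe 2, and the 2 were FTH1 probes 5 and 9. FTH1 probe 10 also lost its call with the processed signal, the authors' table, no filter, and slide as a block. HAMP and TFRC kept their relation past the unadjusted threshold in each alternative (r from -0.89 to -0.68), and HAMP and ID1 did so by r except in HS animals (r = 0.36). By rho, HAMP and ID1 also missed it without the 2 animals farthest from the HAMP median (permutation p = 0.057) and without the 5 animals (permutation p = 0.0596). No paired analysis was possible because the labels carry no replicate numbers that pair animals. Genes near background, such as BMP6, and the brightest genes, such as FTH1, limit what a difference in them can show.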
